A study of Mus musculus with 12 samples.

Results

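The comparison rests on 6 arrays, 3 from the antrum of 60-day-old CEA424-SV40 TAg mice and 3 from non-transgenic antrum, out of the 12 arrays of the series. The arrays were chosen by their titles alone, day 60 transgenic mouse 1 to 3 and control mouse 1 to 3, and 22057 of 46116 probes passed the signal filter. The transgenic animals carry SV40 T antigens driven by the minimal CEA promoter of human origin, hemizygously and on a C57Bl/6 background, and their samples are labelled as antral tumour that includes normal tissue. The controls are wild type C57Bl/6 antrum labelled with an age of 2 to 6 months, whereas the study's text calls them littermates, so how their age matches the 60 days of the transgenic mice is uncertain. The remaining arrays, 3 each from transgenic mice aged 30 and 90 days, set the 60-day values in time, and also entered the normalization and the signal filter.

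The antrum is the distal part of the stomach, where hormone-secreting enteroendocrine cells lie scattered among mucous cells. Such cells store peptides and amines in dense-core granules built around granin proteins, and release them through the same docking machinery that neurons use. The SV40 large T antigen binds the retinoblastoma proteins and p53, which frees E2F factors and drives cells into division.

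The transgene was examined first. The probe for the large T antigen had normalized signals of 159, 112 and 106 in day 60 mice 1, 2 and 3, against 69.1, 72.3 and 67.5 in the controls. All 3 day 60 values lay above the controls, but the log2 difference of 0.83 ± 0.16 (limma standard error) had an adjusted p of 0.0591 and missed the threshold of 0.05. Because no control array reached 100, taken here as the limit of background, the fold is given as at least 1.23. The probe matching both large T and small t had 107, 94.0 and 88.2 in day 60 mice and 79.2, 76.2 and 79.5 in the controls (adjusted p = 0.289), and the probe for small t alone stayed below 100 on all 6 arrays. At the other ages the large T probe averaged 99.97 ± 23.89 at day 30 and 164 ± 18.3 at day 90 (SD, n = 3 each).

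Several arrays stood apart in ways the genotype does not describe. Among the 6 arrays control mouse 3 lay apart, at -49.9 on the first principal component, which took up 37.5% of the variance. Control mouse 1 lay farthest out on the second component, at 41.05, with 27.9% of the variance. Correlations between arrays were 0.973 to 0.978 within day 60, and 0.933 to 0.956 within the controls. Transcripts of pancreatic acinar cells were high in day 60 mouse 3 and control mouse 1 only, as shown by the protease gene Cela2a with 116, 141 and 34656 in day 60 mice and 46340, 284 and 120 in controls. Genes of squamous epithelium, which lines the mouse forestomach, were lowest in day 60 mouse 1: the 16 measured genes had mean log2 signals of 7.28, 9.01 and 7.995 in day 60 mice and 9.09, 9.55 and 9.24 in controls. Control mouse 3 had high Lyz1 and Slc5a1, genes of Paneth cells and intestinal absorptive cells, at 2859 and 832. The Y-linked gene Eif2s3y was above background only in day 60 mouse 1. Its signals were 502, 84.9 and 59.0 in day 60 mice and 71.2, 71.9 and 65.5 in controls. It is 1 of 3 measured sex-linked genes, so the sex of the mice is not settled by it. Acinar, squamous and intestinal transcripts and Eif2s3y thus differed between single mice. Their part in the results below was not tested unless a value is given.

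**Figure D1:**
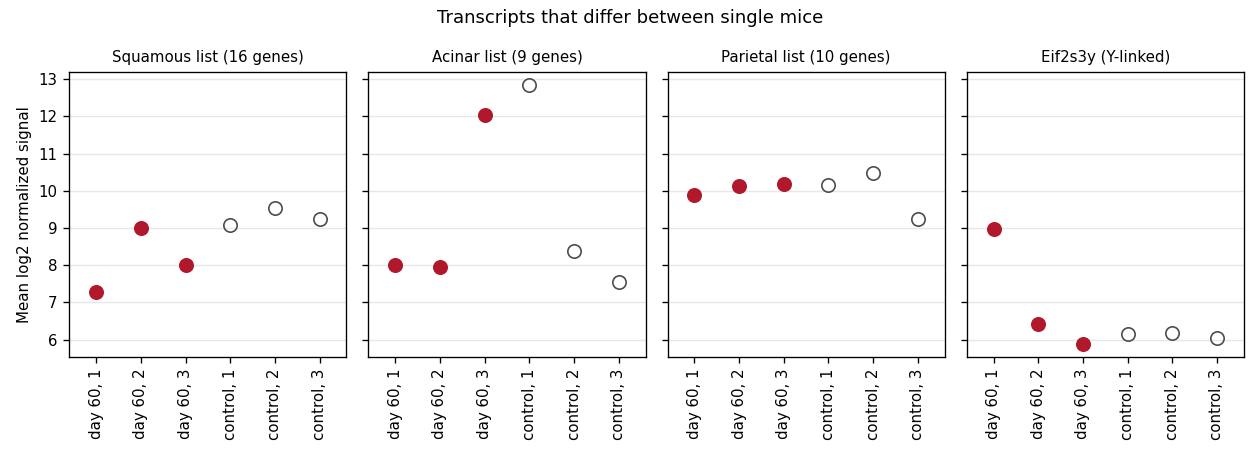
Each point is 1 array, with the 3 day 60 mice (filled) left of the 3 controls (open); the vertical axis is the mean log2 normalized signal over the measured genes of a list, or of Eif2s3y alone. Acinar genes were high in day 60 mouse 3 and control mouse 1, squamous genes were lowest in day 60 mouse 1, parietal genes were lowest in control mouse 3, and Eif2s3y was high in day 60 mouse 1.

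By limma with Benjamini-Hochberg adjustment, 187 of 22057 probes were higher in day 60 mice than in controls (0.848% of those tested) and 2 were lower (0.00907%). Of the 187, 85 differed by at least 2-fold and 13 by at least 4-fold. All 189 called probes had groups that did not overlap, as did 4604 of all 22057 tested. The 2 lower probes carry no gene name here. Because tissue was measured in bulk, more cells of a type and more RNA per cell cannot be told apart for any gene below. The number of calls depended on single animals: it was 3 without control mouse 1, 161 without control mouse 2 and 278 without control mouse 3, and 40, 26 and 51 without day 60 mouse 1, 2 and 3. Without day 60 mouse 2 most of these calls were lower, with 7 higher and 19 lower. Without both arrays that were high in acinar transcripts, 1 call was left, Dlk1.

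Names were available for 117 of the 187 higher probes. Of these, 50 were named only through a table in which the study lists genes raised at 90 days, so the largest named rises favour genes that go on rising; all 50 were higher again at day 90. After clones and predicted genes were set aside, 103 named genes were higher, and the 25 with the largest differences are shown first. Each of the 25 kept its direction under every alternative run, with log2 differences of at least 1.155. Of the 3 controls, 1 lay below 100 for Chgb, Gcg and Insm1, and 2 for Tph1 and Grp. When 1 array was left out, the number of the 25 still called was 3, 20 and 25 without control mouse 1, 2 and 3, and 20, 5 and 19 without day 60 mouse 1, 2 and 3.

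**Figure D2:**
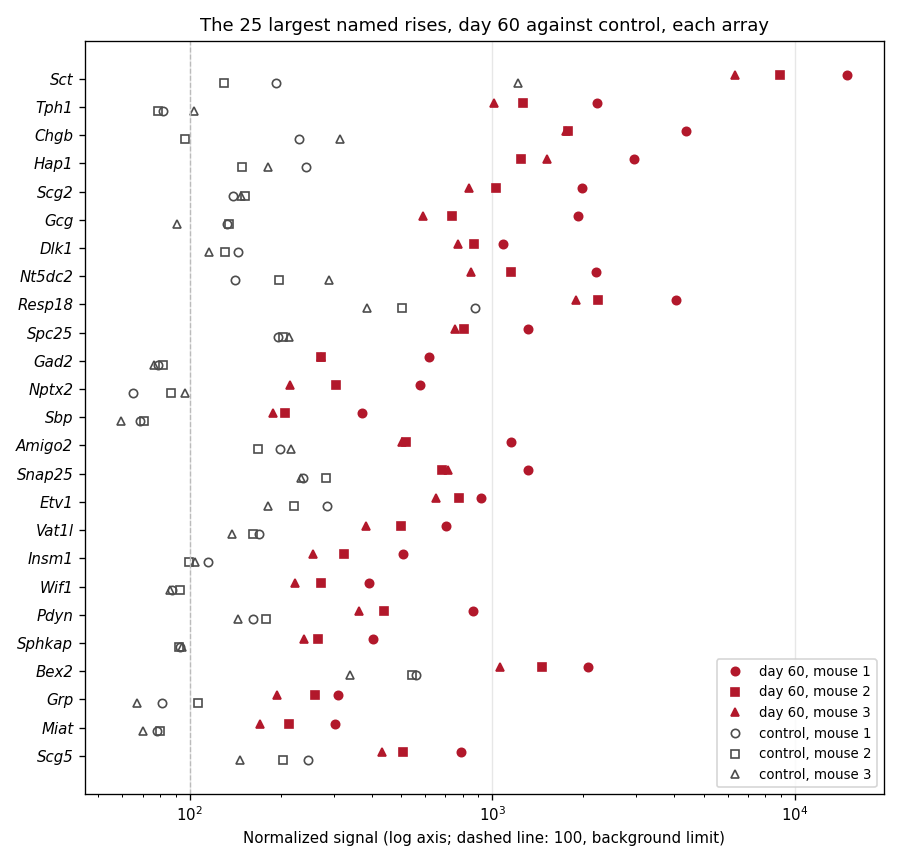
Normalized signal on a log axis of the 25 genes with the largest named rises, with 1 symbol per mouse; filled symbols are day 60 mice and open symbols are controls. In each row the 3 day 60 values lie above the 3 control values, and day 60 mouse 1 is the highest in 25 of 25 genes.

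The largest named rise was in a peptide hormone. Sct, which encodes secretin, had signals of 14942, 8944 and 6347 in day 60 mice and 193, 130 and 1217 in controls. The groups were far apart although control mouse 3 was well above the other controls, and the log2 difference was 4.92 ± 0.72, or 30.3-fold (adjusted p = 0.0275). Gcg, the glucagon gene that also encodes glucagon-like peptides, had 1923, 737 and 591 in day 60 mice against 133, 135 and 91.0 in controls (log2 3.00 ± 0.39, adjusted p = 0.0196). Pdyn, the precursor of the dynorphin opioid peptides, had 867, 440 and 362 in day 60 mice and 162, 179 and 145 in controls (1.68 ± 0.28, adjusted p = 0.0392). Grp, which encodes the gastrin-releasing peptide, was dimmer, with 311, 260 and 195 against 81.3, 107 and 66.9 (1.59 ± 0.21, adjusted p = 0.0196). Calca, the calcitonin gene, did not pass, with 193, 139 and 85.2 in day 60 mice and 53.03, 65.5 and 59.1 in controls (adjusted p = 0.0889). Of 8 measured hormone genes 4 were higher and none lower, with a median log2 difference of 1.37 beside -0.01 for all tested probes; 6 of the 8 were named through the study's table, and of the other 2 none was called (median 0.52). Over all tested probes 0.848% were called higher. Gcg, Grp and Calca had fewer than 3 controls above 100, so they passed the signal filter only with transgenic arrays. The share and median of the list are thus partly set by the filter. No hormone gene was called without control mouse 1 or without day 60 mouse 2. Gast, which encodes gastrin, the hormone of the antral G cell, was not analysed here.

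The granins, the acidic proteins that form the core of the secretory granule, held further large rises. Chgb, chromogranin B, had signals of 4374, 1777 and 1755 in day 60 mice and 229, 96.6 and 314 in controls (log2 3.65 ± 0.46, adjusted p = 0.0196). Scg2, secretogranin II, had 1978, 1034 and 842 against 140, 152 and 148, with controls that hardly varied (3.03 ± 0.27, adjusted p = 0.00989). Resp18, a protein of peptide-secreting cells, had 4062, 2236 and 1887 in day 60 mice and 876, 505 and 385 in controls (2.22 ± 0.34, adjusted p = 0.0314). Scg5, a chaperone of the prohormone convertase PC2, had a log2 difference of 1.52 ± 0.25 (adjusted p = 0.0362). Chga, chromogranin A, a general marker of endocrine cells, had 2112, 1045 and 1086 against 505, 591 and 291, did not overlap, and missed the threshold (1.60 ± 0.32, adjusted p = 0.0661). In all, 4 of 10 measured granule genes were higher and none lower (median log2 difference 1.19), and 4 of the 10 were named through the study's table; of the other 6, 1 was called and the median was 0.50. Beside this, 0.848% of all tested probes were called higher. Chgb had fewer than 3 controls above 100 and passed the signal filter only with transgenic arrays. Scg5 was also the only 1 of 6 prohormone processing genes called (median 0.66). Leaving out control mouse 1 left none of the granule genes called, and leaving out day 60 mouse 2 left 1.

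The promoters of Chgb and Scg2 are shown because they were the most changed granins and because granin promoters are known targets of cAMP signalling. The cAMP response element TGACGTCA, searched on both strands in the RefSeq promoters of GRCm38.p6 (250 bases before to 50 after the start), was present in 1.79% of 32851 promoters and in 2 of the 4 promoters of changed granule genes; those of Resp18 and Scg5 held none. The 100 bases before the start are given, with the element in capitals. It begins at -72 in Chgb, on chr2:132781542-132781641 (plus strand), and at -68 in Scg2, on chr1:79440027-79440126 (minus strand). A match in sequence is a description and no measure of binding.
Chgb: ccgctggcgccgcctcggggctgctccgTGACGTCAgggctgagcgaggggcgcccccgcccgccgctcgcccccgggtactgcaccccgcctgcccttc
Scg2: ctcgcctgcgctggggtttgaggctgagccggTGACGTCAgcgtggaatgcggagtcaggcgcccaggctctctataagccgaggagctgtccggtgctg

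Of 5 measured genes of amine synthesis 2 were higher and none lower, beside 0.848% of all tested probes called higher. Tph1 passed the signal filter only with transgenic arrays, so the share is partly set by the filter. Of the 5, 3 were named through the study's table. Of the other 2 none was called (median 0.43, beside 1.27 for all 5). Tph1, the tryptophan hydroxylase that sets the pace of serotonin production outside the brain, had signals of 2216, 1268 and 1012 in day 60 mice and 82.0, 78.5 and 103 in controls. The difference of 4.02 ± 0.26 (adjusted p = 0.00141), with 2 of 3 controls below 100, came second among the named genes, and it passed the threshold with any single array left out, at adjusted p up to 0.0336. Hdc, which makes histamine, had 473, 316 and 315 against 151, 186 and 119 (1.27 ± 0.21, adjusted p = 0.0359). Hdc is also a mast cell gene, and the other 3 measured mast cell genes, Cma1, Mcpt4 and Fcer1a, had log2 differences of -0.29, -0.26 and -0.23 and did not pass. Ddc, the decarboxylase that follows Tph1, had 1845, 979 and 1037 in day 60 mice and 240, 151 and 557 in controls (2.18 ± 0.43, adjusted p = 0.0633).

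Few genes of the machinery that docks and releases vesicles passed the test. Snap25, a SNARE protein of the cell membrane, had signals of 1319, 681 and 716 in day 60 mice and 237, 283 and 233 in controls (log2 1.79 ± 0.24, adjusted p = 0.0196). A second, dimmer Snap25 probe had 91.6, 114 and 89.0 against 104, 92.3 and 79.3 and did not pass (adjusted p = 0.812). Syt4, a synaptotagmin, had 312, 197 and 169 in day 60 mice with no control above 91.9 (at least 2.18-fold, adjusted p = 0.0336), whereas a second Syt4 probe had 109, 89.4 and 109 against 113, 112 and 100.8 and did not pass. These were the only 2 of 16 measured members called, beside 0.848% of all tested probes called higher. The called Syt4 probe passed the signal filter only with transgenic arrays. Syp, synaptophysin, had a log2 difference of 0.71 with an adjusted p of 0.323, and 15 of the 16 differences were positive (median 0.50).

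Transcription factors of the endocrine lineage were the list with the highest share of called members, 6 of 8 measured, beside 0.848% of all probes. The list holds 20 factors. Of the 8 measured, Nkx2-2 and Fev passed the signal filter only through transgenic arrays, so the share is partly set by the filter. Etv1, an ETS factor, had signals of 919, 776 and 652 in day 60 mice and 285, 221 and 181 in controls (log2 1.78 ± 0.19, adjusted p = 0.0186), while its 2 dimmer probes did not pass. Etv1 is also listed as a gene of interstitial cells of Cajal, with 2 genes measured. The other measured gene of that list lay below every control in all 3 day 60 mice, and the part of such cells was not tested. Insm1, a zinc finger repressor needed for endocrine differentiation, had 507, 324 and 257 against 115, 99.5 and 104 (1.71 ± 0.22, adjusted p = 0.0196). Nkx2-2, a homeodomain factor of pancreatic and intestinal endocrine cells, had 254, 159 and 161 in day 60 mice with all controls below 100 (at least 1.87-fold, adjusted p = 0.0193). The remaining called members were St18 and Neurod1, with log2 differences of 1.00 and 0.92, and Fev, the serotonergic factor also known as Pet1, at least 1.41-fold higher with no control above 100. Myt1 and Prox1 were higher in every day 60 mouse than in any control but did not pass, at adjusted p of 0.116 and 0.162. Among the 4 factors not named through the study's table, 3 were called (median 1.20). Leaving out control mouse 1 left 1 of them called, and leaving out day 60 mouse 2 left none.

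The other genes among the 25 largest rises have varied roles. Hap1, a huntingtin-associated transport protein, had signals of 2940, 1249 and 1524 in day 60 mice and 242, 149 and 181 in controls (log2 3.25 ± 0.30, adjusted p = 0.00989). Dlk1, an imprinted Notch-like surface protein of progenitor cells, had 1083, 870 and 774 against 145, 131 and 116. With a difference of 2.79 ± 0.15 and an adjusted p of 0.000637 it had the smallest adjusted p of the 25. Gad2, which makes the transmitter GABA, Nptx2, a neuronal pentraxin, and Wif1, a secreted inhibitor of Wnt ligands, had no control array above 100 and were at least 3.57-fold, 3.36-fold and 2.88-fold higher. Amigo2, a neuronal adhesion protein, and Bex2 had log2 differences of 1.79 and 1.65. The other rises, of Nt5dc2, Sbp, Vat1l, Sphkap and the long noncoding RNA Miat, ran from at least 2.23-fold for Miat to 6.45-fold for Nt5dc2. Among 18 measured genes of enteric neurons and glia, which share several of these products, 1 was called, Map1b (0.82 ± 0.14, adjusted p = 0.0425). A second, dimmer Map1b probe had 130, 118.5 and 106 in day 60 mice against 149, 134 and 114 in controls. It did not pass (limma adjusted p = 0.661). Of all tested probes 0.848% were called higher. The neuron and glia list had a median difference of 0.38, beside -0.01 for all tested probes, and 15 of the 18 differences were positive. In all 3 day 60 mice 11 members were above every control. Over all 22057 tested probes, 4604 had groups that did not overlap, counting both directions. The differences ran from -0.13 for Nefm, a neurofilament, to 0.97 for Stmn3, and the part of such cells in the results was not tested.

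**Figure D3:**
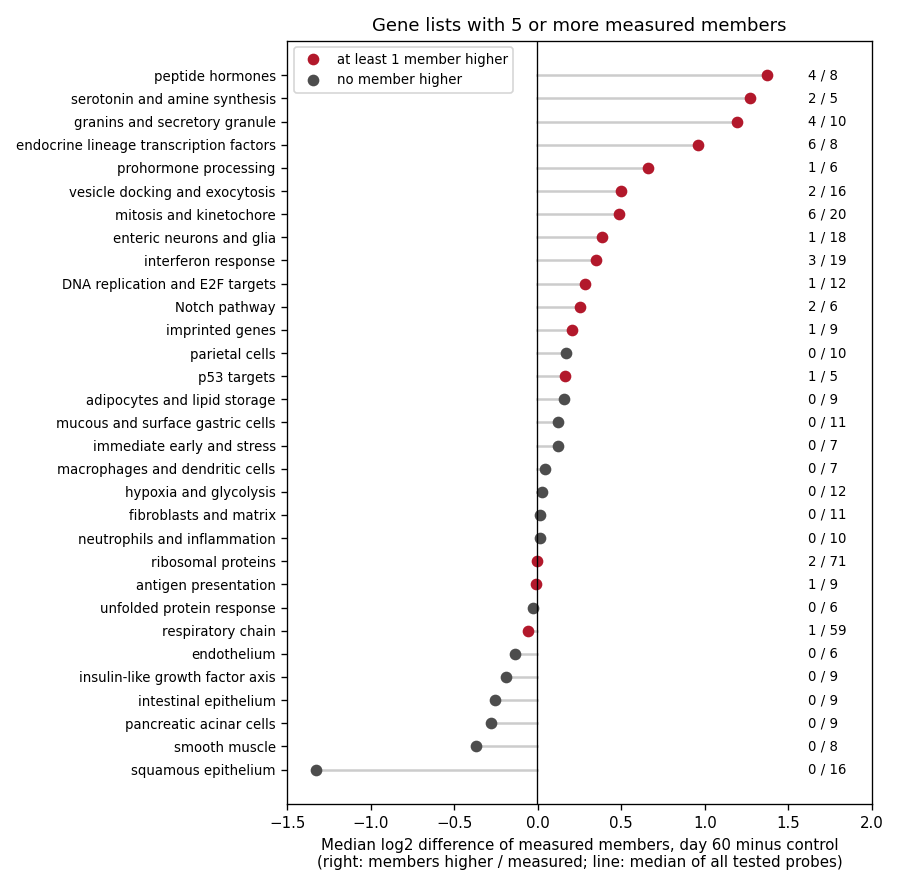
Points give the median log2 difference, day 60 minus control, of the measured members of each gene list with 5 or more members; numbers at the right give members called higher over members measured. Hormone, amine, granule and endocrine factor lists lie highest, with medians of 1.37, 1.27, 1.19 and 0.96 (0.52, 0.43, 0.50 and 1.20 without genes named through the study's table), and the squamous list lies lowest at -1.33 with no member called.

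Some genes of cell division and chromatin rose. Of 20 measured mitosis genes 6 were higher and none lower, beside 0.848% of all tested probes called higher. All 20 differences were positive, and the median was 0.49, beside -0.01 for all tested probes. Spc25, a kinetochore subunit, had 1315, 810 and 751 in day 60 mice and 196, 203 and 213 in controls (log2 2.19 ± 0.20, adjusted p = 0.00989), although a second Spc25 probe lay near background. Stmn1, which destabilises microtubules, had 593, 567 and 607 against 229, 252 and 187 (1.41 ± 0.13, adjusted p = 0.00989). Unlike the hormone genes, it was as high in day 60 mice 2 and 3 as in mouse 1. Cenpa, the centromeric histone, had 1271, 1319 and 1110 in day 60 mice and 561, 563 and 675 in controls (1.04 ± 0.13, adjusted p = 0.0193). Pbk, H2az1 and Kif4 completed the 6. Mki67 and Ccnb1, common markers of cycling cells, did not pass, with differences of 0.53 and 0.93 and adjusted p of 0.184 and 0.0609. Control mouse 1 again decided the count, which was 0 without it.

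Among replication genes and chromatin proteins, single members rose. Pcna, the sliding clamp of DNA polymerases, had 384, 421 and 362 in day 60 mice and 226, 230 and 171 in controls (log2 0.91 ± 0.14, adjusted p = 0.0339) and was the only 1 of 12 replication genes called; Uhrf1 came next at 0.97 ± 0.19 (adjusted p = 0.0572). Among all tested probes 0.848% were called higher. The nucleosome-binding protein Hmgn2 had 277, 299 and 328 against 139, 127 and 97.8 (1.32 ± 0.15, adjusted p = 0.0193). The chromatin protein Hmgb1 had 916, 1086 and 1102 against 559, 518 and 423 (1.05 ± 0.14, adjusted p = 0.0202), and the histone gene H2ac22 differed by 1.36 ± 0.19 (adjusted p = 0.0227), with uncertainty because near-identical histone copies may share its probe. Cdkn2a, the tumour suppressor locus that encodes p16 and Arf, had 230, 165 and 160 in day 60 mice with all controls below 100 (at least 1.82-fold, adjusted p = 0.0314), while Cdkn1a, a target of p53, differed by -0.04. The 8-letter E2F sites TTTCCCGC, TTTCGCGC, TTTGCCGC and TTTGGCGC, searched on both strands, were in 2.26% of all promoters and in none of the 5 promoters found for changed mitosis and replication genes.

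Interferon-induced genes formed a further group of rises. Oas1a, a sensor of double-stranded RNA, had 1816, 1154 and 1230 in day 60 mice and 405, 695 and 441 in controls (log2 1.46 ± 0.24, adjusted p = 0.0353). Irf7, the factor that amplifies interferon production, had 237, 190 and 192 against 112, 122 and 103 (0.88 ± 0.13, adjusted p = 0.0292). Ifi47, an interferon-induced GTPase, had 263, 223 and 220 against 129, 145 and 156 (0.72 ± 0.13, adjusted p = 0.0460). These 3 of 19 measured genes were called, beside 0.848% of all tested probes called higher. Of the 19 differences 16 were positive, and the median was 0.35, beside -0.01 for all tested probes. Oas1g had nearly the difference of Oas1a, 1.48 ± 0.28, and missed the threshold (adjusted p = 0.0536); the 2 genes are close relatives and may share signal. Outside the list, Apol9a had 696, 463 and 458 in day 60 mice and 171, 283 and 196 in controls (1.32 ± 0.22, adjusted p = 0.0394), and the helicase gene Ddx60 was at least 1.77-fold higher (adjusted p = 0.0257). Mx1, Psmb8 and Cxcl9 differed by 0.14, -0.03 and -0.06. None of the 3 list members stayed called without control mouse 1 or without any one of the day 60 mice.

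The Oas1a promoter is shown as that of the most changed gene of the interferon list. The element GAAANNGAA, searched on both strands, was in 8.56% of all promoters and in 1 of the 3 promoters of changed list members; Irf7 and Ifi47 held none in this window. In Oas1a it occurs at -20 and again at -14, overlapping, in the 100 bases before the start on chr5:120907526-120907625 (minus strand), where capitals mark both.
Oas1a: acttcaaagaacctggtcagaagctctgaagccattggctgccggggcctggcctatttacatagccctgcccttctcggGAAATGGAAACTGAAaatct

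Of the listed genes that present antigen, 1 of 9 was called, beside 0.848% of all tested probes called higher. H2-K1, a classical class I molecule, had 2322, 2083 and 2222 in day 60 mice and 1060, 993 and 1200 in controls (log2 1.03 ± 0.12, adjusted p = 0.0193). Its partner B2m had 7290, 6379 and 6323 against 3743, 4509 and 5789 (0.53, adjusted p = 0.184), and class II H2-Ab1 differed by -0.38. Histocompatibility genes share sequence, so the H2-K1 signal may include relatives. None of the 24 genes of T and NK cells had a named probe past the filter, and of 7 macrophage genes none was called (median 0.04).

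Few genes of protein synthesis and respiration were called, beside 0.848% of all tested probes called higher. Rps6, a protein of the small ribosomal subunit, had 1443, 1947 and 1804 in day 60 mice and 868, 946 and 655 in controls (log2 1.08 ± 0.17, adjusted p = 0.0339), and Rpl30 differed by 1.02 ± 0.16. They were 2 of 71 ribosomal protein genes, whose median difference was -0.01. Of 59 listed respiratory chain genes Atp5md alone was called (0.99 ± 0.17, adjusted p = 0.0403), with a median of -0.06 for the list. Outside the list, COX2, a mitochondrially encoded oxidase subunit, was also called. It had 12943, 12677 and 13173 in day 60 mice and 7660, 9071 and 7963 in controls (0.66 ± 0.11, limma adjusted p = 0.0419).

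The acid-secreting and structural tissue showed no called change. Of 10 parietal cell genes none passed, with a median difference of 0.17. Atp4a, the proton pump, had 10148, 11240 and 12140 in day 60 mice and 11468, 17193 and 3931 in controls (log2 0.28 ± 0.44, adjusted p = 0.820), a difference that became -0.33 without control mouse 3. Clic6, a chloride channel protein of these cells, had 5118, 7391 and 6823 against 6543, 8984 and 3014 (0.18 ± 0.35, adjusted p = 0.858). With standard errors of this size, a moderate change in parietal genes was not detectable here. Among 11 mucous and surface cell genes none was called; Klf4 and Ctse, the closest, differed by 0.64 and 0.61 (adjusted p = 0.107 and 0.148), and both were higher in every day 60 mouse than in any control. The 2 dimmer Klf4 probes did not separate the groups.

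Squamous genes were the only list with a strongly negative median, -1.33 over 16 genes, and none passed. Of the 16, 10 were below the controls in all 3 day 60 mice, beside 4604 of all 22057 probes without overlap in 1 direction or the other. Krt13, a keratin of stratified epithelium, had 369, 2831 and 797 in day 60 mice and 2813, 5312 and 4234 in controls (log2 -2.08 ± 0.62, adjusted p = 0.167). Without day 60 mouse 2, the array with the most squamous signal in its group, 19 probes were lower, among them those of Krt15 and Calm4 of this list. Of 8 smooth muscle genes and 11 matrix genes none was called, and Col3a1 came closest with 681, 1177 and 938 against 465, 529 and 365 (1.02 ± 0.21, adjusted p = 0.0733).

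The same genes were then followed to the neighbouring ages, in comparisons that share the day 60 arrays with the one above. Between day 60 and day 30, 78 probes were higher (0.354%) and 1 was lower (0.00453%); without day 30 mouse 3, day 60 mouse 2 or day 60 mouse 3 none passed. Among the 25 genes, Gcg, Etv1 and Grp passed here, with log2 differences of 2.14, 1.11 and 1.31 (adjusted p = 0.0459, 0.0380 and 0.0331). Chgb did not pass, and its day 30 mice varied widely, with a mean of 1458 ± 1930 (SD, n = 3) and the highest signal in mouse 2. Stmn1, Hmgn2, Hmgb1, Pcna and H2-K1 had day 30 means of 240, 121, 460, 190 and 880, and exceeded them at day 60 by 1.34, 1.33, 1.20, 1.04 and 1.35 on the log2 scale, all past the threshold.

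Between day 90 and day 60, 2193 probes were higher (9.94%) and 2170 lower (9.84%). The largest rises went on: Sct averaged 37933 ± 12260 at day 90 and exceeded day 60 by 1.94, Chgb by 3.96 and Tph1 by 2.37 on the log2 scale (adjusted p = 0.00125, 1.61e-05 and 0.000112), and all 25 named rises were called higher at day 90. Since 21 of the 25 had a name only through the table of genes raised at that age, this was largely fixed by the naming. Of the 137 higher probes not named that way, 36 were higher at day 90, 27 lower and 74 neither, with a median difference of 0.003. Of the 20 mitosis genes 1, Spc25, was higher at day 90 (log2 difference 1.51) and none lower, and of the 12 replication genes 1, Tk1, was lower. Stmn1, Hmgn2, Pcna and Cenpa did not pass between these ages, with log2 differences of 0.51, 0.03, 0.31 and -0.50, whereas H2ac22 fell by 0.84. Interferon-induced genes were lower at day 90: Oas1a averaged 254 ± 87.2 there, below its day 60 level by a log2 difference of -2.49 (adjusted p = 5.35e-05), and Apol9a, Ddx60, Irf7 and Ifi47 differed by -2.09, -1.12, -0.63 and -0.71. Of the 19 interferon genes 10 were called lower at day 90 and none higher. Of the 10 parietal genes 9 were lower at day 90, Atp4a by a log2 difference of -4.21, and 1, Cckbr, was higher.

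**Figure D4:**
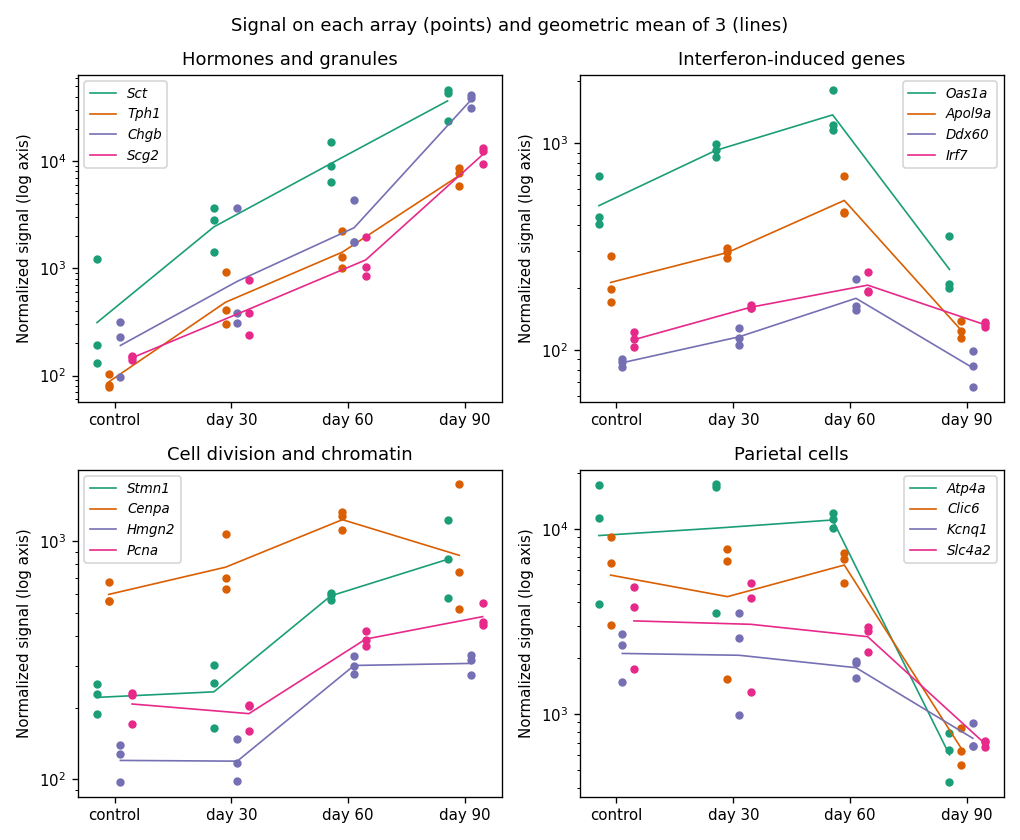
Normalized signal on a log axis of 4 genes from each of 4 groups in controls and in transgenic mice at day 30, day 60 and day 90; points are arrays and lines join geometric means of 3 different mice. Hormone and granule genes climbed to day 90, and interferon-induced genes were highest at day 60. The 4 division and chromatin genes shown had no called difference between day 60 and day 90. Parietal genes were low only at day 90 apart from single control and day 30 mice.

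The 3 day 60 mice did not share these patterns equally. Mouse 1 had the highest signal in 113 of the 187 higher probes, mouse 2 in 39 and mouse 3 in 35, whereas over all 22057 probes the counts were 7010, 8155 and 6892. Among the 86 probes that were also higher at day 90 than at day 60, mouse 1 was highest in 73, and among the 74 with no call between those ages it was highest in 22. Mouse 1 also had the highest large T signal, 159, and was the array with Eif2s3y above background and the least squamous signal. Without mouse 1, Sct still differed by 4.59, and the smallest of the 25 differences was 1.27.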

How the data were processed

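RNA from 12 antral samples was hybridised by the authors to Illumina Sentrix Mouse-6 bead arrays, and the deposited table holds non-normalized intensity values of 46116 probes without background subtraction (array medians 92.1 to 127.1). The authors also deposited normalized intensity values on a linear scale, used here as an alternative. Detection p-values were not used here, and the number of arrays limits the precision.

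Intensities were corrected with normexp (offset 50), quantile normalized over the 12 arrays, floored at 32 (the smallest value was 50.8) and taken to log2 in R 4.3.3 with limma 3.58.1. After 59 control probes were left out, probes above 100 on at least 3 arrays were kept (22057). Each pair of groups was fitted with lmFit and eBayes, and Benjamini-Hochberg adjusted p-values were called at 0.05. The labels do not state more than separate mice, and p-values measure the spread between these 3 a group. The script was tested on simulated data.

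Genes were named through the gene number in the probe ID (9832 probes, an inference in which 88 of 88 probes that could be checked matched the study's table), an accession or clone in the ID, or the study's table (227); 34576 probes stayed unnamed. The text names the 25 largest rises with 1 gene and non-overlapping groups, then for each list 2 to 4 changed members or the 2 with the smallest p, the genes the study names, and the transgene probes; other genes were chosen after their values were seen. Where a gene had several probes, the one with the highest mean was used. Members and lists were chosen with earlier results of these data known. Alternatives covered background correction, scaling, floor, filters, spread model, array weights, a replicate block and leaving out arrays. They also covered the t-test of the study's methods, without its filters on fold change and difference of means.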

Additional observations from a re-analysis of the deposited data

Results flagged for a closer look

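These results differed between ages by a limma test of that difference, in comparisons that share the day 60 arrays. In all, 79 probes differed between day 60 and day 30 and 4363 between day 90 and day 60.

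Relative to day 30, genes that were also above controls were higher at day 60 by log2 differences of 2.14 for Gcg, 1.11 for Etv1, 1.31 for Grp and 0.96 for Neurod1. Division, chromatin and cytoskeletal genes differed by 1.34 for Stmn1, 1.19 for H2ac22, 1.33 for Hmgn2, 1.20 for Hmgb1, 1.04 for Pcna and 1.30 for Tuba1a. Others were Rps6 at 1.501, H2-K1 at 1.35, Atp5md at 1.13 and Ifi47 at 0.80.

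At day 90, 25 of the 25 largest named rises were higher still, but 21 of them had a name only through the study's table of genes raised at that age, and the 137 higher probes not named that way had a median difference of 0.003. Oas1a, Apol9a, Ddx60, Irf7 and Ifi47 were lower at day 90 than at day 60, with log2 differences of -2.49, -2.09, -1.12, -0.63 and -0.71, and H2ac22 differed by -0.84. Causes were not tested.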

How the results depend on the processing

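The 189 probes called between day 60 and controls were 380 on the deposited normalized values, 8 with a floor of 100, 313 with no filter, 322 in 1 fit of all 4 groups, 426 with a trended and robust spread, 284 with array weights and 1 without both arrays high in acinar genes (chosen after seeing the data). The methods' t-test, run here without the study's filters on fold change and difference of means, called 0 after adjustment and 2748 unadjusted. Its counts are therefore not those of the study's full rule. In limma 3196 probes had an unadjusted p under 0.05. With 1 array left out, the count ran from 3 (without control mouse 1) to 278 (without control mouse 3). Same-numbered mice share only a number (correlations of their deviations -0.199, 0.184 and -0.174), and the replicate block gave 42 calls, and 0 between day 60 and day 30.

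Between day 60 and day 30 the 79 calls were 190 without background correction, 47 on the deposited values, 227 with no filter, 173 in 1 fit of all groups, 208 with a trended spread and 130 with array weights. They were 0 with a normexp offset of 16, 75th percentile scaling, a floor of 100 or a filter at 200; the methods' t-test gave 0 adjusted and 2651 unadjusted, and leaving out 1 array gave 0 to 229. Between day 90 and day 60 the methods' t-test gave 1506 adjusted calls, beside 4363.

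The large T probe passed with a normexp offset of 16 (log2 1.317), and at 0.826 with no filter, in 1 fit of all groups, with a trended spread and in the methods' unadjusted t-test. Atp4a and Clic6 turned to -0.021 and -0.093 with array weights, and with 1 array left out ran from -0.333 to 0.731 and from -0.268 to 0.520; Cela2a ran from -3.192 to 2.160. The causes were not tested. None of the 103 named rises reversed under any alternative run, but 4 passed with the floor of 100, 30 with the block and 0 in the adjusted t-test.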
